A study of Homo sapiens with 4 samples.

Results

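The genes described here are TXNIP, the arrestin-domain genes ARRDC1, ARRDC2, ARRDC3 and ARRDC4, and the glucose-sensing transcription factor genes MLX, MLXIP and MLXIPL. They were taken by gene symbol from the platform annotation, and each was read by 1 probe, so that 8 of the 24460 probes on the array are involved. RNA came from HT29 and DLD1, established human colorectal cancer lines, each grown for 24 h without glucose or with 10 mM glucose. By the sample titles the cultures without glucose held glutamine alone and the cultures with glucose held both. The condition labels likewise name glutamine beside glucose, but the growth protocol speaks of 10 mM glucose or 2 mM glutamine being added. The titles were followed here, by which all cultures had 2 mM glutamine, and if the protocol holds to the letter the media would differ in glutamine as well. All cultures had 10% dialysed fetal bovine serum. The groups were HT29 without glucose, HT29 with glucose, DLD1 without glucose and DLD1 with glucose. A single-colour oligonucleotide array labelled with Cy5 was run for each of the 4 groups, and no label states that a culture was repeated. A change within a line therefore has no replicate check and no p-value, and the effect of the medium is repeated only across the 2 lines.

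TXNIP encodes thioredoxin-interacting protein, an alpha-arrestin that binds thioredoxin and lowers glucose uptake by promoting the internalisation of glucose transporters. MondoA, encoded by MLXIP, and its relative ChREBP, encoded by MLXIPL, bind DNA together with MLX. They enter the nucleus when glucose 6-phosphate accumulates and activate genes through carbohydrate response elements, of which those of TXNIP and ARRDC4 are the best known MondoA sites. The other alpha-arrestins are adaptors that bring ubiquitin ligases of the NEDD4 family to membrane proteins.

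Values are given on 2 scales. The deposited intensity is linear, had the same median on every array, and followed the spot median on a straight line that crossed 0 near the blank spots. The normalized value is the log2 of the spot median after normexp correction with an offset of 50 and quantile normalization, and the offset shrinks the changes of dim genes. A change is the log2 ratio of the culture without glucose to the culture with glucose in the same line. In deposited units the blank spots had an SD of 1.14 to 1.43 per array, and the 96 negative control spots reached 8.10 to 10.7. Scaling matters to every signed value. With the blank level subtracted but no scaling between arrays, the median change of all genes was -0.36 in HT29 and -0.14 in DLD1, and on both scales used here it lay within 0.02 of 0. All 9 colorectal epithelial markers on the array, EPCAM among them, were above the blank spots on all 4 arrays. Some were dim in 1 line. In HT29, CDX2 was at 6.2 without and 4.0 with glucose, and CDH17 at 3.0 and 4.8. The brightest negative controls of those arrays were at 10.7 and 10.6. In DLD1 with glucose LGALS4 was at 7.8, against 8.10 for the brightest negative control. Markers with several probes were read by the brightest. Of 5 leukocyte markers 4 were above the blank spots on all arrays, with CD79A at 82.2 to 119.7, and PTPRC on none. CD3E was at 1.3 to 3.4, below the brightest negative control of each array, and its other probe was above on no array. Of 4 fibroblast markers DCN was above on all arrays, at 86.6 to 94.2, LUM on both HT29 arrays, and COL1A1 and COL1A2 on none. The other probe of DCN was above on no array. Of 2 endothelial markers VWF was above on all arrays, at 4.5 to 5.6, and CDH5 on 3. Both were below the brightest negative control of each array. The summed signal of the leukocyte markers was 231.9 in HT29 without glucose, against 164.1 with glucose, and 145.1 in DLD1 without glucose, against 127.7 with glucose. CD68 moved most, at 78.9 without and 19.1 with glucose in HT29 and at 36.4 and 16.7 in DLD1. CD14 went the other way, at 29.4 without and 38.4 with glucose in HT29 and at 18.9 and 25.4 in DLD1. The part of these signals in the results was not tested.

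TXNIP was lower without glucose in both lines. Its deposited intensity was 22.8 in HT29 without glucose, against 100.1 in HT29 with glucose. In DLD1 it was 4.5 without glucose, against 37.6 with glucose. Both values without glucose lay below both values with glucose. These are 4.39-fold and 8.36-fold lower intensities without glucose in HT29 and DLD1, or changes of -2.13 and -3.06, with a mean of -2.60 ± 0.66 (SD, n = 2 lines). Of 14927 genes with deposited values on all arrays, 223 had a lower change in HT29 and 3 had a lower one in DLD1. With the offset of 50 the changes of this dim gene were -1.07 and -0.78, with a mean of -0.92 ± 0.20 (SD, n = 2 lines). In limma, with the line as a block, the mean change had an adjusted p of 0.305 over 16624 genes with normalized values and of 0.291 with deposited values. That fit has 1 residual degree of freedom and called no gene for the medium (0.00% at an adjusted p below 0.05, 13.4% at an unadjusted p below 0.05), and the unadjusted p of TXNIP was 0.0122. A smaller amount of RNA per cell and a smaller number of cells that hold it cannot be told apart in such bulk RNA.

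In DLD1 without glucose the TXNIP spot was close to background. Its spot median was 40.1, against 82.5 in DLD1 with glucose. The limit for a probe above background, the 95th percentile of the blank spots, was 36.2 and 35.8 on these arrays. On the array without glucose, 28 of 2680 blank spots and 14 of 96 negative control spots were as bright as TXNIP, while on the array with glucose none were. The size of the decrease in DLD1 is thereby less certain than that in HT29, where no blank or negative control spot was as bright as TXNIP in either medium (spot medians 59.1 without glucose and 169.4 with glucose). The local background around the TXNIP spot also differed, at 38.7 without glucose and 92.6 with glucose in HT29 and at 31.6 without glucose and 42.1 with glucose in DLD1. With it subtracted, and the offset of the normalized values kept, the changes were -0.53 in HT29 and -0.43 in DLD1. They compare with the normalized changes of -1.07 in HT29 and -0.78 in DLD1, not with the deposited changes.

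**Figure D1:**
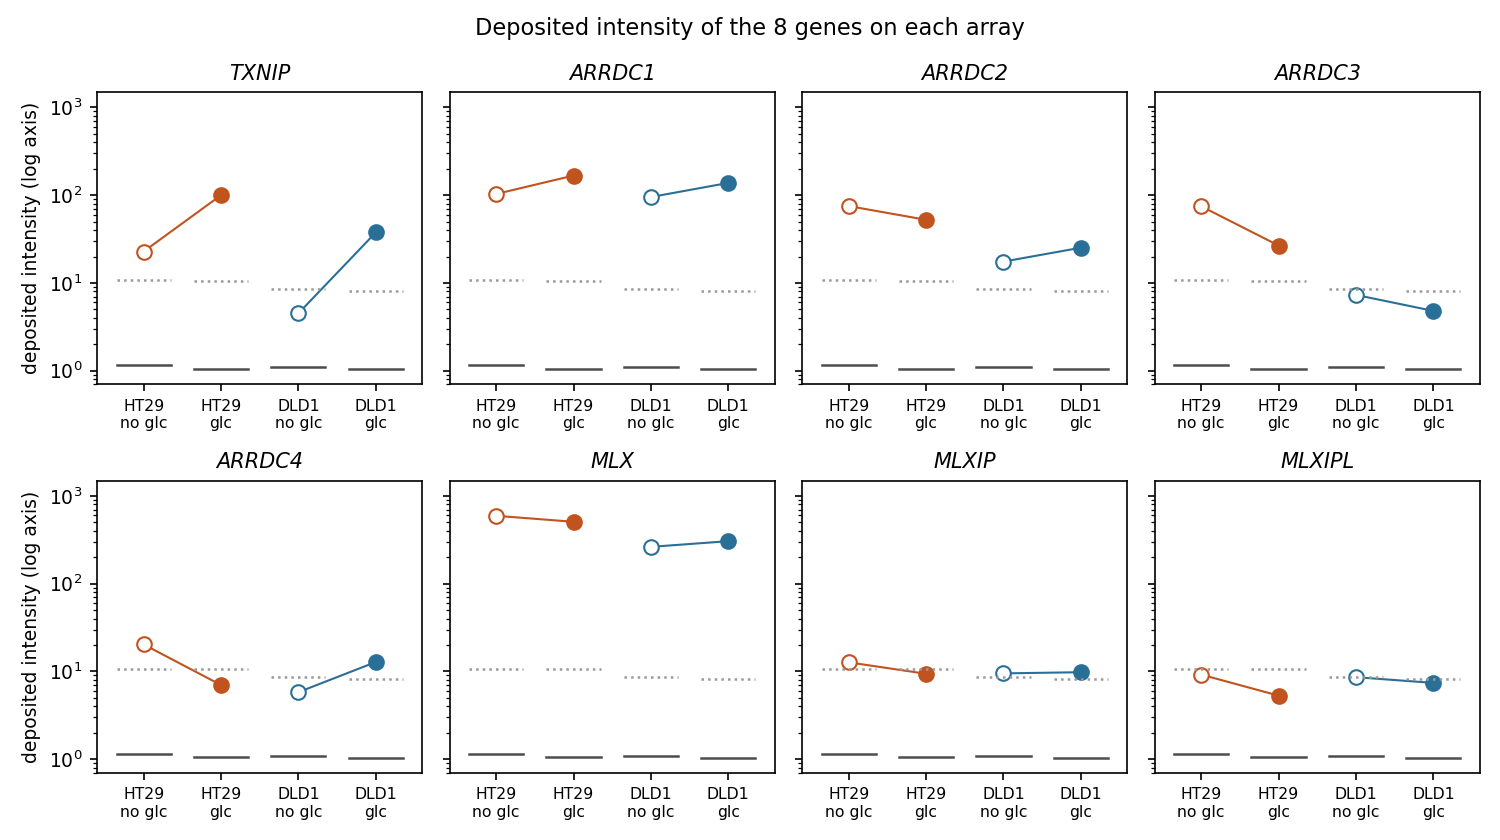
Deposited intensity (log axis) of the 8 genes on the 4 arrays, with open points for cultures without glucose (no glc), filled points for cultures with glucose (glc), HT29 in orange and DLD1 in blue. Solid bars mark the 95th percentile of the blank spots and dotted bars the brightest of 96 negative control spots on each array. TXNIP lies lower without glucose in both lines, ARRDC4 lies higher in HT29 and lower in DLD1, and MLXIPL lies below the brightest negative control on all 4 arrays.

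The promoters of TXNIP and ARRDC4 are shown because both genes are described targets of MondoA and their changes had opposite signs in HT29. The windows come from RefSeq (GRCh38.p14) and run from 250 bases before to 50 bases after the start, 5′ to 3′ on the strand of the gene. The TXNIP window shown lies at chr1:145996530-145996829 on the minus strand and the ARRDC4 window at chr15:97960453-97960752 on the plus strand. Capitals mark a pair of E-box-like sites 5 bases apart in TXNIP and an E-box in ARRDC4.
TXNIP: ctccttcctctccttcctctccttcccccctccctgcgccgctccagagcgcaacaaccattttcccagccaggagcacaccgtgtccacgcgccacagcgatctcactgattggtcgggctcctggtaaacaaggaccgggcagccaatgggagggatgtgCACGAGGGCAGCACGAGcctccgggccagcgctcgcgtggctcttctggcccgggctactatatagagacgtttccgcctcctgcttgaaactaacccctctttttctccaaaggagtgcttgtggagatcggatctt
ARRDC4: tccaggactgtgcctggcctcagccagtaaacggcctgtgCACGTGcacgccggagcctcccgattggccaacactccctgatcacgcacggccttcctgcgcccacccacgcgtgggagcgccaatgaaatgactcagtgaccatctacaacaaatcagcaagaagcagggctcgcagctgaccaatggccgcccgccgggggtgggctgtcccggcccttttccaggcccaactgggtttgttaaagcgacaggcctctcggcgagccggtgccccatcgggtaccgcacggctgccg

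Both strands of the 11 RefSeq windows of the 8 genes were searched. The paired motif was any combination of CACGNG and CNCGTG with 5 bases between them, and the E-box was CACGTG. The paired motif occurred in the TXNIP window at positions -88 to -72 from the start, as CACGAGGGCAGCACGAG, and in no other window of the 8 genes. It was present in 27 of 35116 windows of all genes (0.0769%). The E-box occurred in the ARRDC4 window at -210 to -205 and in the MLX window at -50 to -45, and in 7.26% of all windows. A match describes the letters only. An absent match says nothing of sites that lie outside the window or are spelled otherwise.

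ARRDC4, which like TXNIP limits glucose uptake, was higher without glucose in HT29 and lower in DLD1. Its deposited intensity was 20.3 in HT29 without glucose, against 7.0 with glucose. In DLD1 it was 5.8 without glucose, against 12.8 with glucose. The changes were 1.54 and -1.14 with the deposited values and 0.33 and -0.21 with the offset of 50. All 4 values were dim. At the lower array of each line, HT29 with glucose and DLD1 without glucose, 19 and 26 of 2680 blank spots were as bright as the ARRDC4 spot, and 2 of 96 negative control spots were on each. The mean change was 0.06 ± 0.38 with the offset of 50 (SD, n = 2 lines, limma adjusted p = 0.948). With the deposited values it was 0.20 ± 1.89 (SD, n = 2 lines, limma adjusted p = 0.912). The difference between the lines was not tested, since 4 arrays leave no residual degree of freedom for it.

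ARRDC3, which helps to ubiquitinate and sort beta-adrenergic receptors, was higher without glucose in HT29. Its deposited intensity was 74.7 in HT29 without glucose, against 26.7 with glucose, a change of 1.48 (0.74 with the offset of 50). In DLD1 it was 7.3 without glucose, against 4.8 with glucose, a change of 0.60 (0.06 with the offset of 50). The DLD1 values lay near background, where 21 of 2680 blank spots were as bright without glucose and 29 with glucose. The mean change was 1.04 ± 0.62 with the deposited values and 0.40 ± 0.48 with the offset (SD, n = 2 lines; limma adjusted p = 0.304 and 0.630).

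ARRDC1, which recruits ubiquitin ligases and the budding machinery of vesicles to the plasma membrane, was moderately lower without glucose in both lines. It was brighter than every blank and negative control spot on all arrays. Intensities were 103.2 in HT29 without glucose, against 167.4 with glucose, and 95.3 in DLD1 without glucose, against 138.0 with glucose. Both values without glucose lay below both with glucose. The changes were -0.70 and -0.53, with a mean of -0.62 ± 0.12 (SD, n = 2 lines), or -0.47 and -0.35 with the offset of 50. The limma adjusted p was 0.311 with normalized and 0.353 with deposited values. The size depends on the local background, which was 44.0 without glucose and 112 with glucose around the ARRDC1 spot in HT29. With it subtracted, and the offset of 50 kept, the changes were -0.25 in HT29 and -0.17 in DLD1. Without scaling between arrays, and with no offset, they were -1.06 and -0.66.

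ARRDC2 had changes of opposite sign in the lines. Deposited values were 75.2 in HT29 without glucose, against 52.4 with glucose, and 17.5 in DLD1 without glucose, against 25.2 with glucose. The changes were 0.52 and -0.53, or 0.33 and -0.19 with the offset of 50 (limma adjusted p = 0.937 for the mean). No blank or negative control spot was as bright as ARRDC2 on any array.

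The Mondo factors showed small changes. MLX, the DNA-binding partner shared by MondoA and ChREBP, had a deposited intensity of 593.9 in HT29 without glucose, against 507.6 with glucose. In DLD1 it had 263.0 without glucose, against 305.2 with glucose. The changes were 0.23 and -0.21 with the deposited values and 0.22 and -0.04 with the offset of 50. With that offset the mean was 0.09 ± 0.19 (SD, n = 2 lines, limma adjusted p = 0.800). These changes depend on the local background, which was 306 without glucose and 612 with glucose around the MLX spot in HT29 and 172 and 305 in DLD1. When it was subtracted, with the offset of 50 kept, the changes were 1.24 in HT29 and 0.71 in DLD1, both positive. With median scaling they were -0.03 and -0.29, and without scaling -0.13 and -0.34, both negative.

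MLXIP, which encodes MondoA, had a deposited intensity of 12.7 in HT29 without glucose, against 9.4 with glucose, and of 9.5 in DLD1 without glucose, against 9.8 with glucose. The changes were 0.43 and -0.04, or 0.08 and -0.02 with the offset of 50 (limma adjusted p = 0.913). Between 6 and 15 of 2680 blank spots per array were as bright, and 1 of 96 negative controls was in HT29 with glucose. MLXIPL, which encodes ChREBP, had a deposited intensity of 9.2 in HT29 without glucose, against 5.3 with glucose, and of 8.6 in DLD1 without glucose, against 7.4 with glucose. Its changes were 0.80 and 0.22, or 0.10 and 0.02 with the offset of 50 (limma adjusted p = 0.709). In HT29, 7 of 96 negative control spots without glucose and 17 with glucose were as bright as the MLXIPL spot, so a change of ChREBP RNA was not detectable at this signal.

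**Figure D2:**
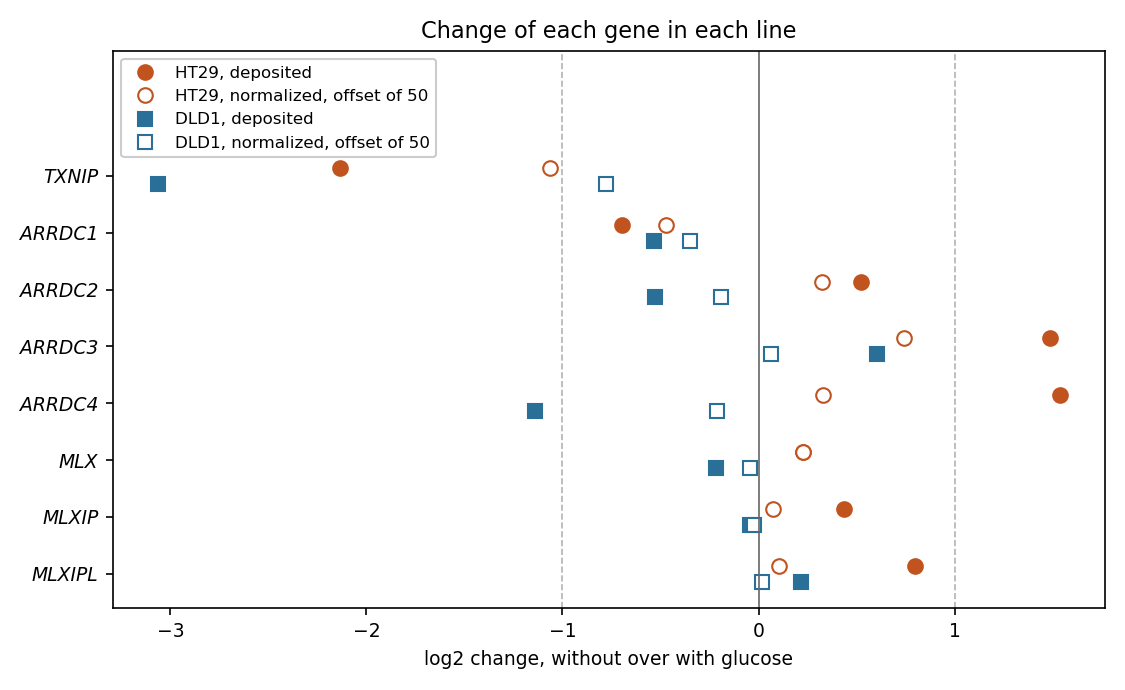
Change of each gene in log2 without over with glucose, in HT29 (circles) and DLD1 (squares), with deposited values (filled) and with normalized values (open). Dashed lines mark a 2-fold change, and TXNIP lies beyond them in both lines with the deposited values and in HT29 alone with the offset of 50.

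At a 2-fold minimum with normalized values, 1 of the 8 genes, TXNIP, was lower in HT29, where 3.16% of all genes were, and 0 of 8 in DLD1, where 0.788% of all genes were. None of the 8 was higher by that much in HT29 or DLD1, as 3.63% and 1.14% of all genes were, and none passed the minimum in both lines, as 0.421% of all genes did downward and 0.662% upward. With the deposited values TXNIP was lower in HT29 (1 of 8, against 11.1% of all genes), and TXNIP and ARRDC4 in DLD1 (2 of 8, against 4.39%). ARRDC3 and ARRDC4 were at least 2-fold higher in HT29 (2 of 8, against 9.75%), and 0 of 8 were in DLD1 (against 3.80%). TXNIP was the only one of the 8 to be changed by 2-fold in the same direction in both lines, as were 2.10% of all genes in the lower direction and 1.78% in the higher. The median change of the 8 genes was 0.48 in HT29 and -0.37 in DLD1 with the deposited values, and 0.16 and -0.12 with normalized values. Opposite signs in the lines were seen for ARRDC2, ARRDC4, MLX and MLXIP, 4 of 8, against 33.9% of all genes with the deposited values and 37.1% with normalized ones. For TXNIP and ARRDC1 both values without glucose lay below both with glucose (2 of 8 on either scale, against 17.8% of all genes with deposited and 17.3% with normalized values). For MLXIPL both lay above (1 of 8, against 16.4% and 16.6%). An unadjusted limma p below 0.05 for the medium was reached by TXNIP and ARRDC1 with normalized values (2 of 8, against 13.4% of all genes) and by TXNIP and ARRDC3 with deposited values (2 of 8, against 14.9% of all genes).

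**Figure D3:**
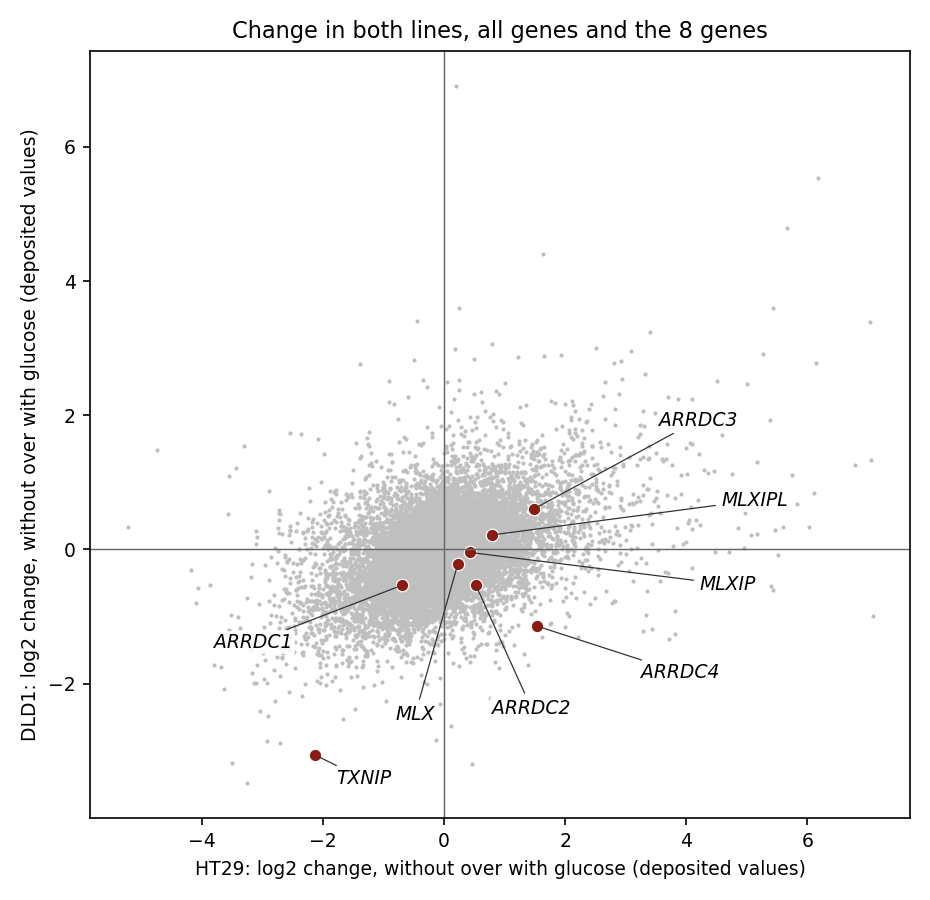
Change in DLD1 (vertical axis) against change in HT29 (horizontal axis), both in log2 without over with glucose from the deposited values, for 14927 genes (grey) and the 8 genes described here (red). TXNIP lies at the lower left at -2.13 and -3.06, and ARRDC4 lies at 1.54 in HT29 and -1.14 in DLD1.

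The lines were then compared within each medium. TXNIP was higher in HT29 than in DLD1 in both media, with deposited values of 22.8 in HT29 and 4.5 in DLD1 without glucose and 100.1 in HT29 and 37.6 in DLD1 with glucose. These are 5.07-fold and 2.66-fold differences. The first is of uncertain size, as it rests on 4.5 in DLD1, where 14 of 96 negative controls were as bright as TXNIP. The ratios for ARRDC3 were 10.2 without glucose and 5.56 with glucose, but they rest on DLD1 values of 7.3 and 4.8, below the brightest negative controls of those arrays (8.62 and 8.10). With glucose 17 of 96 negative controls were as bright as ARRDC3 in DLD1, so the sizes are uncertain. ARRDC2 was higher in HT29 by 4.30-fold and 2.08-fold, and MLX by 2.26-fold and 1.66-fold. ARRDC4 was 3.50-fold higher in HT29 without glucose, while with glucose it was lower in HT29, at 7.0 against 12.8 in DLD1. Both comparisons rest on a dim value. ARRDC4 was at 5.8 in DLD1 without glucose, where the brightest negative control was at 8.62. In HT29 with glucose that control was at 10.6. ARRDC1, MLXIP and MLXIPL differed less between the lines, by log2 values of -0.48 to 0.42 (HT29 over DLD1). TXNIP, ARRDC1, ARRDC2, ARRDC3 and MLX, 5 of 8, were higher in HT29 in both media, as were 43.7% of all genes with deposited values. On that scale the median log2 difference of all genes, HT29 over DLD1, was 0.158 without and 0.109 with glucose. ARRDC1 was at 0.115 without glucose, below that median, and at 0.279 with glucose. With normalized values 4 of 8 were higher in HT29 in both media, without ARRDC1, against 35.9% of all genes.

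Limma, with the medium as a block, gave ARRDC3 a mean difference of 2.92 ± 0.62 (SD, n = 2 media) and an adjusted p of 0.0317 with the deposited values, from the dim DLD1 values just described, with which 740 genes were called (4.96%, and 26.7% at an unadjusted p below 0.05). With normalized values ARRDC3 had a difference of 0.87 and an adjusted p of 0.267, and no gene was called (0.00%, and 21.0% at an unadjusted p below 0.05). For TXNIP the mean difference was 1.88 with the deposited values and 0.61 with normalized ones, at limma adjusted p-values of 0.0622 and 0.191. The spread within a group is not known, so values next to each other in the order of the 4 arrays cannot be separated.

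Genes around this group were read from 6 lists, chosen with earlier results of these data known. Over all genes the median normalized change was -0.00 in both lines. The 2-fold minimum was passed upward by 3.63% and downward by 3.16% of all genes in HT29 with normalized values, and by 1.14% and 0.788% in DLD1. With deposited values these shares were 9.75% and 11.1% in HT29, and 3.80% and 4.39% in DLD1. Counts of the lists are from normalized values unless stated. Of 7 measured genes among the other arrestins and the arrestin-fold VPS26 genes, 1 was at least 2-fold higher in HT29 (3.63% of all genes) and 1 in DLD1 (1.14%), and none was lower by that much. With deposited values 2 were higher and 1, ARRB1, lower in HT29, and 1 was higher and 0 lower in DLD1. Of the 2 higher in HT29, ARR3 was dim, at 3.3 without and 1.4 with glucose. The brightest negative controls of those arrays were at 10.7 and 10.6. The gene higher in both lines was VPS26B, a subunit of the retromer that recycles membrane proteins from endosomes, at 1.39 in HT29 and 1.28 in DLD1. Its deposited intensity was 465.2 in HT29 without glucose, against 145.9 with glucose, and 315.5 in DLD1 without glucose, against 124.4 with glucose (mean 1.34 ± 0.08, SD, n = 2 lines, with normalized values; limma adjusted p = 0.303). The beta-arrestin gene ARRB2 was at 0.22 and 0.38, ARRB1 at -0.54 and -0.15, and VPS26C at -0.24 and -0.35.

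Of 9 NEDD4-family ubiquitin ligases, the enzymes that alpha-arrestins recruit, 1 was at least 2-fold higher in HT29 (3.63% of all genes) and 0 in DLD1 (1.14%), and none was lower by that much. The medians were 0.43 in HT29 and -0.00 in DLD1. With deposited values 3 of 8 were higher in HT29 and 0 in DLD1, and the medians were 0.83 and 0.03. NEDD4L, which also ubiquitinates the epithelial sodium channel, was at 1.01 in HT29 and 0.90 in DLD1, with deposited values of 471.3 without and 211.2 with glucose in HT29 and of 309.4 without and 170.2 with glucose in DLD1. ITCH, a ligase that marks TXNIP protein for degradation, was at 0.94 and 0.41, WWP2 at -0.02 and -0.12, and WWP1 at -0.54 and -0.25. The smallest limma adjusted p in the list was 0.303.

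Of 12 measured partners and regulators of TXNIP, 2 were at least 2-fold higher in each line (3.63% of all genes in HT29 and 1.14% in DLD1) and 0 lower. The medians were 0.05 in both lines. With deposited values 1, USP5, was also lower in HT29, at -1.42, and the medians were 0.51 in HT29 and 0.16 in DLD1. The 2 higher genes were DDIT4, whose product inhibits mTORC1 and can form a complex with TXNIP (2.57 in HT29 and 2.59 in DLD1), and TXNRD1, the reductase of thioredoxin (1.92 and 1.51). The mitochondrial thioredoxin gene TXN2 was at -0.31 and -0.23 and the deubiquitinase gene USP5 at -0.89 and -0.61. Of 10 genes of the MAX and MLX network, which share the basic helix-loop-helix zipper fold, 1 was at least 2-fold higher in HT29 (3.63% of all genes), 0 in DLD1 (1.14%), and none lower. With deposited values 2 were higher and 2, MXD3 and MXD4, lower in HT29, and 2, MXD1 and MXI1, were higher and 0 lower in DLD1. In HT29 MXD4 was at 1.0 without and 3.0 with glucose, and its spot without glucose was not above background. MXD1, a repressor that pairs with MAX and MLX, was at 1.78 in HT29 and 0.97 in DLD1, with deposited values of 532.0 without and 118.4 with glucose in HT29 and of 84.3 without and 24.4 with glucose in DLD1. MXI1 was at 0.43 and 0.67, MXD3 at -0.45 and -0.26, and the dim MXD4 at -0.07 and 0.02.

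Of 25 measured genes described as MondoA or ChREBP targets elsewhere, 2 were at least 2-fold higher and 1 lower in HT29 (3.63% and 3.16% of all genes), and 0 higher and 1 lower in DLD1 (1.14% and 0.788%). With deposited values, of 21 genes, 4 were higher and 4 lower in HT29, and 1 higher and 2 lower in DLD1. Of the 2 lower in DLD1, SLC2A5 was at 1.0 without and 2.2 with glucose, and its spot without glucose was not above background. The normalized medians of the list were 0.02 in HT29 and -0.01 in DLD1, beside -0.00 over all genes in each line. The offset shrinks the changes of the dim genes in this list, so these medians cannot show whether such genes changed. PPP1R3C was at 3.4 without and 1.8 with glucose in HT29. Its change there was 0.92 with deposited and 0.05 with normalized values. The deposited medians of the list, without the genes not listed on all arrays, were -0.01 in HT29 and 0.0 in DLD1. The gene lower in both lines was FASN, fatty acid synthase, at -1.93 and -1.05. Intensities were 223.7 in HT29 without glucose, against 1087.9 with glucose, and 482.9 in DLD1 without glucose, against 1215.9 with glucose. ACLY, which makes cytosolic acetyl-CoA, was at -0.66 and -0.37. RGS16, a regulator of G-protein signalling, was at 2.00 in HT29 and 0.13 in DLD1, and the repressor gene BHLHE40 at 0.78 and 0.58, which the deposited values gave as 2.91 and 1.53.

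Of 12 measured genes that make or use hexose phosphates, 3 were at least 2-fold higher in HT29 (3.63% of all genes) and 1 in DLD1 (1.14%), and none was lower by that much. With deposited values 4 were higher in HT29 and 1 in DLD1, and 0 lower. GFPT1, which commits fructose 6-phosphate to hexosamine synthesis, was at 2.56 in HT29 and 1.46 in DLD1. PGM3 of the same pathway was at 2.16 and 0.45, GPI, the isomerase of glucose 6-phosphate, at -0.17 and -0.46, and PGM2 at -0.49 and 0.09. No gene of the 6 lists had a limma adjusted p below 0.303.

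**Figure D4:**
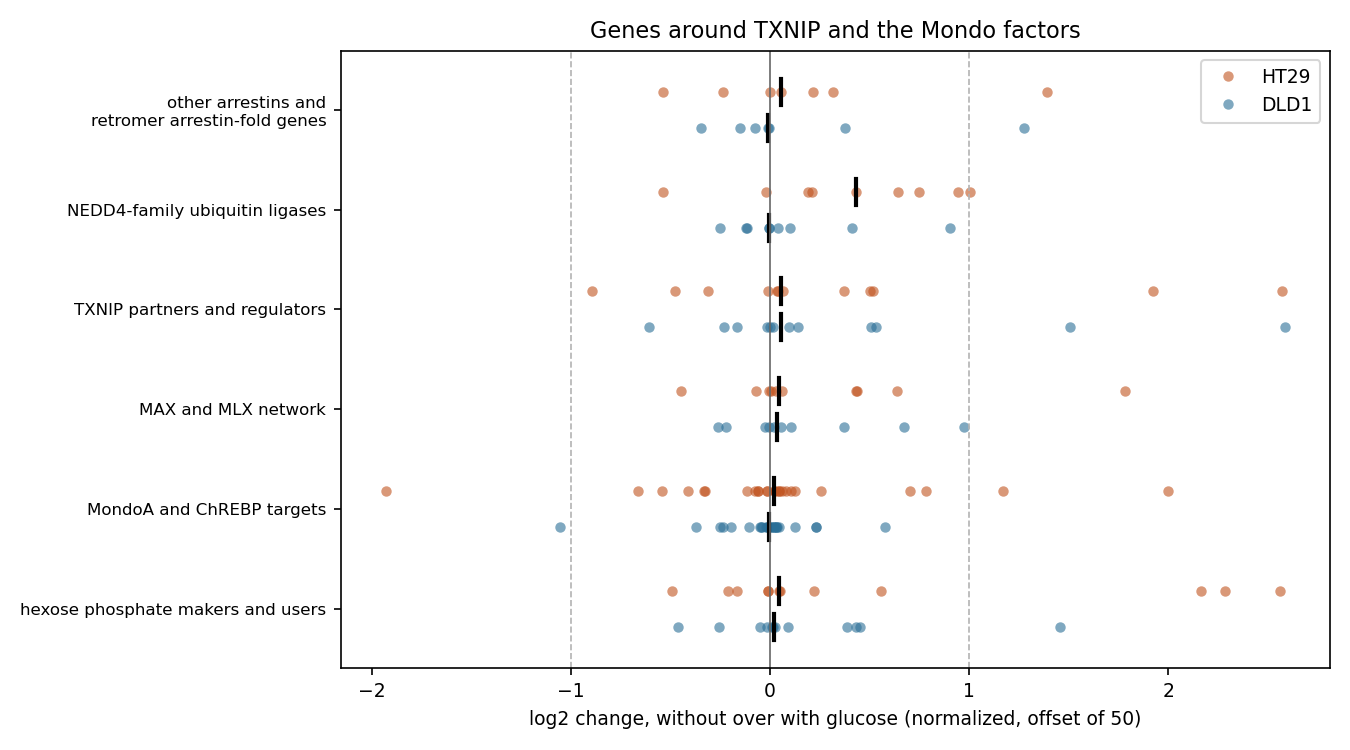
Change of each measured gene of the 6 lists in log2 without over with glucose, normalized with an offset of 50, in HT29 (orange, upper row of each list) and DLD1 (blue, lower row). Black bars mark the list medians, which with these values lie between -0.01 and 0.43, and dashed lines mark a 2-fold change.

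The genes with the pattern most like that of TXNIP were sought among 14680 other genes above the blank spots on all 4 arrays, by the root mean square difference of normalized log2 values, each centred on the mean of the gene. They were BORA, which activates Aurora A kinase in mitosis, F12, which encodes coagulation factor XII, TFAM, the mitochondrial transcription factor, an adenylate kinase gene listed as AK3L1, and MCRIP2, at differences of 0.039, 0.055, 0.065, 0.075 and 0.086. BORA was at -1.13 in HT29 and -0.74 in DLD1, and TFAM at -0.89 and -0.83. On the deposited scale, where no offset shrinks TXNIP, these 5 were less like it, and ranked between 43 and 189. With 4 arrays the likeness is a description only.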

How the data were processed

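Per the file headers, the deposited scanner files list a median intensity for every spot and its surroundings, read at 635 nm and combined over 3 gains, and no background was removed. The deposited value table holds linear intensity. Compared with the spot medians, each column followed a straight line crossing 0 at the level of the blank spots. No source used here states how the table was made.

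Spot medians were corrected with normexp (offset 50) over all 27456 spots and quantile normalized in limma 3.58.1 (R 4.3.3). Local background entered only an alternative, since it correlated with the signal of its spot (r across spots on the log scale 0.904 to 0.966). That alternative kept the offset of 50 and the quantile normalization. The 2680 blank spots, other controls and 1 flagged probe were then left out. Probes brighter than the 95th percentile of blank spots counted as above background, as 85.5% to 87.0% of probes did on each array. Of 24460 probes, 20236 carried 1 symbol, 0 carried several and 4224 were unnamed here, and 2851 older symbols were updated through RefSeq synonyms. Probes above background on at least 1 array were averaged per gene, giving 16624 genes. Deposited values were used as log2 for genes listed on all 4 arrays, with no pseudocount. The number of arrays limits the precision.

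The mean effects of medium and line were tested with limma (the other factor as a block) and Benjamini-Hochberg adjustment over all genes. With 2 lines or 2 media, p-values reflect only the spread between these samples, which may be technical. Only the limma fit was run on simulated data, as gene-level values with planted changes. The background correction, the offset, the scaling and the handling of dim probes were not tested in that way. Figures were drawn with matplotlib 3.10.9. Members, lists and tests were chosen with earlier results of these data known. Named were the 8 genes, from each list the 2 highest and 2 lowest by mean change plus any 2-fold changed in both lines, and the 5 genes most like TXNIP. Protein sequences were not used here.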

Additional observations from a re-analysis of the deposited data

Results flagged for a closer look

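The changes without over with glucose had opposite signs in the lines for 4 of the 8 genes, which is why they are given here. With normalized values the difference of the change, HT29 minus DLD1, was 0.51 for ARRDC2, 0.54 for ARRDC4, 0.27 for MLX and 0.0998 for MLXIP. The same differences with the deposited values were 1.05, 2.68, 0.44 and 0.48. They rest on 1 array per line and medium and were not tested. Opposite signs were seen for 37.1% of all genes with normalized values. The signs for ARRDC2, ARRDC4 and MLXIP stayed opposite under median scaling, cyclic loess, subtraction of the local background, an offset of 16, the deposited values and no scaling. Those for MLX became alike under median scaling (-0.03 in HT29 and -0.29 in DLD1), without scaling (-0.13 and -0.34) and after subtraction of the local background (1.24 and 0.71).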

How the results depend on the processing

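TXNIP was lower without glucose under each of the 10 alternatives with a test, with mean changes of -2.84 to -0.48 and limma adjusted p-values of 0.201 to 0.774, the last with no replicate block, that is, with the line left out of the fit. The smallest decrease came with the local background subtracted and the offset of the normalized values kept. The largest came with the blank level subtracted, no offset and no scaling, an alternative chosen after seeing the data. Leaving out a line gave -1.07 (HT29 alone) and -0.78 (DLD1 alone). ARRDC1 was likewise lower and ARRDC3 higher under all of them. The mean changes of the others had no stable sign. ARRDC2 was at -0.0081 with median scaling, -0.0025 with the deposited values and -0.25 unscaled, and in single lines between -0.19 and 0.33. ARRDC4 was at -0.047 unscaled, and between -0.21 and 0.33 in single lines. MLX was at -0.16 with median scaling, -0.24 unscaled and between -0.04 and 0.22 in single lines. MLXIP was at -0.023 with the local background subtracted, -0.044 unscaled and between -0.024 and 0.076 in single lines, and MLXIPL at -0.0024 with the local background subtracted. The line difference turned with the local background subtracted for MLX (-0.016) and MLXIP (-0.061), and in single media it ran between -0.02 and 0.10 for ARRDC1, -0.17 and 0.37 for ARRDC4, -0.018 and 0.082 for MLXIP, and -0.065 and 0.017 for MLXIPL. The causes were not tested. The medians of the 6 lists moved by more than the SD between the lines in 52 of 108 comparisons with an alternative, and counts of genes at the 2-fold minimum by over 1.5 times in 16 of 36. In HT29 there were 603 higher and 525 lower, against 448 and 905 when scaled on the median, 844 lower with an offset of 16, 1456 and 1658 with the deposited values, and 1122 and 3333 unscaled. In DLD1 there were 189 and 131, against 96 and 324 when scaled on the median, 517 and 564 after subtraction of the local background, 300 and 233 with an offset of 16, 567 and 655 with the deposited values, and 742 and 1231 unscaled. Limma called 0 genes for the medium in all settings, and for the line 740 with the deposited values, 240 unscaled, 48 with no replicate block and 0 otherwise. The ARRDC3 line difference was the only one of the 8 to pass, at an adjusted p of 0.0317 with the deposited values.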

Other observations

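On the deposited scale, by a comparison chosen after seeing the data, the 5 genes with the pattern most like that of TXNIP over the 4 arrays were SRSF6, RNFT2, H3-3B, CAMKMT and GRTP1, at root mean square log2 differences of 0.352 to 0.549. None of them was among the 5 found with normalized values. RNFT2 was dim, at 3.0 without and 19.7 with glucose in HT29 and at 1.2 and 8.9 in DLD1. Its normalized changes were -0.45 and -0.24. CAMKMT was at 3.5 in DLD1 without glucose. The brightest negative controls without glucose were at 10.7 in HT29 and 8.62 in DLD1, so the likeness of these 2 genes is uncertain. SRSF6, which encodes a splicing factor, had a deposited intensity of 67.3 in HT29 without glucose, against 214.6 with glucose, and 19.2 in DLD1 without glucose, against 110.1 with glucose. H3-3B, which encodes histone H3.3, had 91.6 in HT29 without glucose, against 301.6 with glucose, and 30.7 in DLD1 without glucose, against 131.1 with glucose. The 3 genes with a lower change than TXNIP in DLD1 were PSRC1 (-3.48), ECSCR (-3.20) and KIF20A (-3.18). PSRC1 and KIF20A, which act in mitosis, were also lower in HT29, at -3.26 and -3.50, while the dim ECSCR was at 0.47 there.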
